A study of Mus musculus with 6 samples.

Results

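The let-7 family guide arms and miR-98-5p were followed in small RNA from extracellular vesicles, small membrane-bound particles shed by cells, that had been isolated from mouse brain. The members were 9 of the 1926 rows of the deposited miRNA table, chosen by name as let-7 5p arms or miR-98-5p: mmu-let-7a-5p, mmu-let-7b-5p, mmu-let-7c-5p, mmu-let-7d-5p, mmu-let-7e-5p/7k (let-7e merged with let-7k), mmu-let-7f-5p, mmu-let-7g-5p, mmu-let-7i-5p and mmu-miR-98-5p. All 9 were above 0 in every library and all 9 passed the filter on low values. The compared groups held 3 libraries each, vesicles from mice after status epilepticus (SE-BDEV 1 to 3), a prolonged seizure, and vesicles from matched control mice (CON-BDEV 1 to 3). All titles carry day 10, without saying what the day is counted from. The sources used here do not give the agent that caused the seizures, the strain, age or sex of the mice, or how many animals a library was made from. Separate animals behind the libraries of a group are not stated either, and the p-values therefore measure only the spread among these libraries, which may be technical.

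let-7 miRNAs are loaded into Argonaute proteins and repress messenger RNAs that pair with their seed, bases 2 to 8 of the mature strand. They are low in early development, when the RNA-binding protein LIN28 blocks their maturation, and they accumulate as neural precursors differentiate, which makes them abundant in adult brain. miR-98 carries the same seed and is counted as a family member. The guide strand comes from the 5p arm of each hairpin, and the 3p arm is the passenger strand that is mostly degraded.

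The mature sequences are shown because the members differ from each other by few bases, which bears on how reads are divided among them and on the base content described further on. They are from RefSeq on mouse build GRCm38.p6, where all 9 rows found a match by name (for the merged row, by let-7e-5p). Capitals mark the seed, which was GAGGUAG in every member.
let-7c-5p: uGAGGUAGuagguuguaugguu
let-7b-5p: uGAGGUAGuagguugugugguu
let-7a-5p: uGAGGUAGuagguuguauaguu
let-7f-5p: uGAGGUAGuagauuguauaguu
let-7d-5p: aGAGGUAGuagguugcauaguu
let-7g-5p: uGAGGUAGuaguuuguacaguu
let-7e-5p: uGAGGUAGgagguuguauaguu
let-7k: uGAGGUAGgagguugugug
let-7i-5p: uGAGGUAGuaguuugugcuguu
miR-98-5p: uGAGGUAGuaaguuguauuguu

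The 9 members are 22 bases long, and let-7k, whose reads share a row with let-7e-5p, is listed with 19. Counted from 1 at the 5′ end, with the base of let-7a-5p first, let-7c-5p differs from let-7a-5p by A19G, let-7f-5p by G12A and let-7e-5p by U9G. let-7b-5p has A17G and A19G, let-7d-5p has U1A and U16C, let-7g-5p has G12U and U18C, and miR-98-5p has G11A and A19U. let-7i-5p is the farthest from let-7a-5p, with G12U, A17G, U18C and A19U. Of the 36 pairs of members, 4 differ by a single base and 10 by 2 bases. The sources used here do not say how the authors' counting assigned a read that matched several members, so levels of the closest members are uncertain to that extent.

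Of all mouse mature miRNAs in the RefSeq table, 11 names carry the seed GAGGUAG. They are the members, let-7k and miR-1961, and miR-1961 was listed at 0 in all 6 libraries. let-7j, which bears the family name but reads GAGGUAU at bases 2 to 8, was listed at 0 as well.

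In RefSeq, 12 hairpins named let-7 (let-7k and let-7j apart) or miR-98 lie on 7 chromosomes of GRCm38.p6, and the host genes given here are those of GENCODE M21 on GRCm38. The submitters' processing notes name another build, mm9, and the deposited files hold no coordinates. On the minus strand of chromosome 13, the hairpins of let-7d (chr13:48536012-48536114), let-7f-1 (chr13:48537829-48537917) and let-7a-1 (chr13:48538179-48538272) overlap exons of the long non-coding RNA gene 6720427I07Rik. On the plus strand of chromosome 15, the let-7c-2 hairpin (chr15:85706603-85706697) and the let-7b hairpin (chr15:85707319-85707403) are 621 bases apart within exons of Lncppara. On the plus strand of the X chromosome, the let-7f-2 hairpin (chrX:151912346-151912428) and the miR-98 hairpin (chrX:151913214-151913321) are 785 bases apart in an intron of Huwe1. let-7g lies in an intron of Wdr82 (chr9:106178840-106178927), let-7e in an intron of Spaca6 (chr17:17830352-17830444), let-7c-1 in an intron of Mir99ahg (chr16:77599657-77599750) and let-7a-2 in introns of 3110039I08Rik and Gm49317 (chr9:41536716-41536811), all on the plus strand. let-7i overlaps an exon of D630033A02Rik on the minus strand (chr10:122985640-122985724). let-7a, let-7c and let-7f thus each come from a pair of hairpins, whose shared mature strand cannot be told apart in these data.

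The deposited levels are RPM, the reads of a miRNA scaled to a common library total. Libraries held 4996073 to 9391887 reads in SE-BDEV and 4400167 to 8147118 in CON-BDEV. Reads were recovered by taking the smallest RPM above 0 in each library as 2 reads. A member had between 9984 and 2962274 reads in a library, and the widest 95% Wilson interval of a member's share was 0.0443 percentage points to either side, which covers counting error only. Markers of neurons were present, with miR-124-3p, miR-9-5p, miR-128-3p and miR-138-5p summing to 19322 to 37113 RPM in SE-BDEV and 23125 to 28314 RPM in CON-BDEV. Of the red blood cell markers, the rows of miR-144-3p and miR-451a were at 0 throughout, and the merged row of miR-486a-5p and miR-486b-5p had 102 to 111 RPM in SE-BDEV and 83.6 to 199 RPM in CON-BDEV. Endothelial markers, miR-126a-3p and miR-126a-5p, summed to 4116 to 6342 RPM in SE-BDEV and 2828 to 4276 RPM in CON-BDEV and overlapped. Marker sums of 4 other cell types were higher in all SE-BDEV libraries than in any CON-BDEV library. Of the single miRNAs tested further on, 10.7% were higher in this way. For microglia and leukocytes, miR-142a-3p, miR-142a-5p and miR-223-3p summed to 90.5 to 145 RPM in SE-BDEV and 30.2 to 33.6 RPM in CON-BDEV. The oligodendrocyte marker miR-338-3p had 160 to 275 RPM in SE-BDEV and 110.0 to 143.9 RPM in CON-BDEV, with miR-219a-5p at 0. The liver marker miR-122-5p had at least 88.7 RPM in each SE-BDEV library and at most 79.7 RPM in each CON-BDEV library. The muscle markers, miR-1a-3p and the merged row of miR-133a-3p and miR-133b-3p, summed to 121 to 207 RPM in SE-BDEV and 54.3 to 116 RPM in CON-BDEV. Of the markers of these 4 types, miR-142a-5p was called in the comparison given further on (limma adjusted p = 0.00761). miR-142a-3p, miR-338-3p, miR-122-5p and miR-1a-3p were not called there (limma adjusted p of 0.344 to 0.457). The part of these markers in the results on let-7 was not tested. In vesicle RNA, more vesicles of a cell type and more miRNA per vesicle cannot be told apart. Both libraries numbered 3 stood apart from the other 4 on the first principal component, and miR-24-3p was above 0 only in them, at 3128 RPM in SE-BDEV 3 and 3544 RPM in CON-BDEV 3. The component was taken on unscaled log2 values that included miR-24-3p, and how far that row alone set it was not tested.

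The 9 members together took up most of the miRNA reads in every library. Their sum was 78.1, 81.8 and 76.6% of RPM in SE-BDEV 1, 2 and 3, and 81.4, 81.0 and 79.0% in CON-BDEV 1, 2 and 3. The highest and the lowest value were both from SE-BDEV, so the groups overlapped. The difference was -1.66 percentage points (exact permutation p = 0.4, two-sided, smallest possible 0.1). All other miRNAs shared 21.2% ± 2.72 of RPM in SE-BDEV and 19.5% ± 1.26 in CON-BDEV (SD, n = 3).

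**Figure D1:**
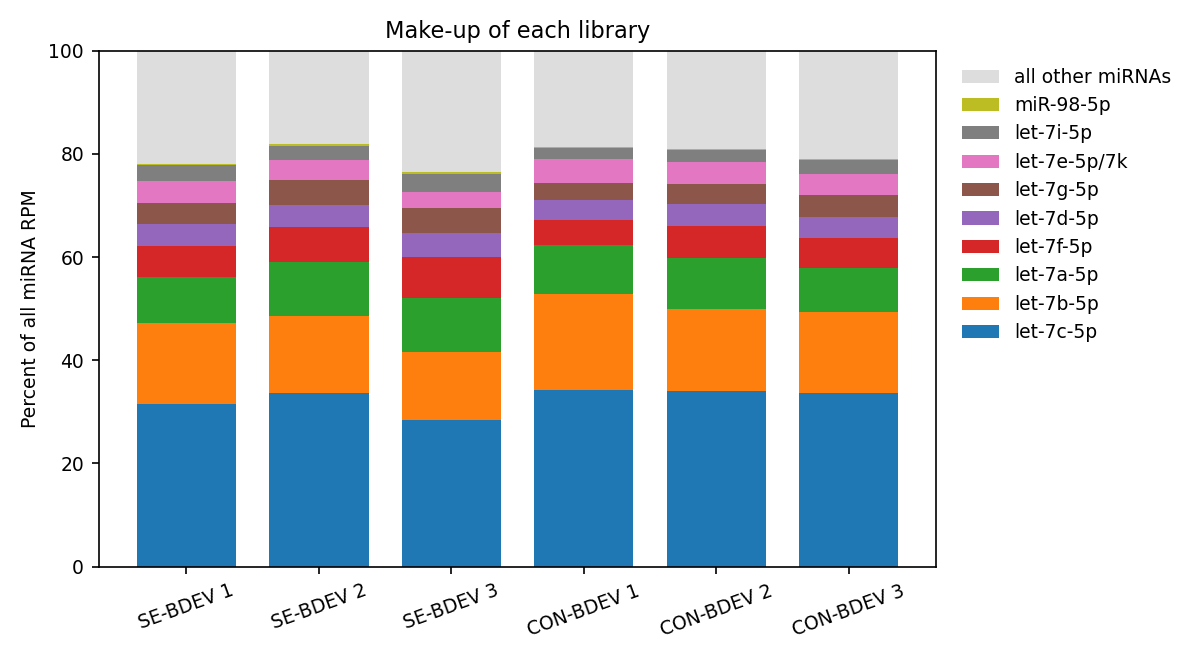
Stacked bars show the percent of all miRNA RPM held by each member and by all other miRNAs (grey) in the 3 SE-BDEV and 3 CON-BDEV libraries. The coloured part reaches 76.6 to 81.8% in SE-BDEV and 79.0 to 81.4% in CON-BDEV, with let-7c-5p as the largest block in each bar.

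let-7c-5p ranked 1 among all miRNAs in each of the 6 libraries, with 31.5, 33.7 and 28.5% of RPM in SE-BDEV and 34.1, 34.1 and 33.6% in CON-BDEV. The CON-BDEV libraries were close together and SE-BDEV 3 was the lowest, while SE-BDEV 2 lay among the controls. let-7b-5p followed with 15.6, 14.7 and 13.2% in SE-BDEV and 18.8, 15.9 and 15.6% in CON-BDEV. The groups did not overlap for let-7b-5p, with all SE-BDEV libraries below all CON-BDEV libraries, but SE-BDEV 1 and CON-BDEV 3 differed by little. let-7a-5p came next, with 90019, 104921 and 104862 RPM in SE-BDEV and 94178, 98766 and 85898 RPM in CON-BDEV, and the groups overlapped. let-7f-5p then had 6.00, 6.84 and 7.79% in SE-BDEV and 4.80, 6.14 and 5.91% in CON-BDEV. Its groups overlapped only because CON-BDEV 2 exceeded SE-BDEV 1.

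The ranks of these 4 were the same in every library, and in each of the 6 each exceeded the next. let-7c-5p had 1.82 to 2.29 times the RPM of let-7b-5p, and let-7a-5p had 1.35 to 1.96 times that of let-7f-5p. The levels are per mature strand of equal length and are not corrected for unequal ligation or amplification of different sequences.

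The next 4 members lay close together. let-7d-5p had 4.22, 4.38 and 4.74% of RPM in SE-BDEV and 4.02, 4.30 and 4.03% in CON-BDEV, with CON-BDEV 2 above SE-BDEV 1. let-7g-5p had 4.17, 4.69 and 4.84% in SE-BDEV and 3.16, 4.02 and 4.16% in CON-BDEV, where all SE-BDEV libraries lay above all CON-BDEV libraries, by a narrow margin between SE-BDEV 1 and CON-BDEV 3. The merged let-7e-5p/7k row had 4.28, 3.95 and 3.02% in SE-BDEV and 4.78, 4.18 and 4.10% in CON-BDEV. Its groups overlapped, since SE-BDEV 1 exceeded CON-BDEV 2 and 3. let-7i-5p had 2.95, 2.66 and 3.62% in SE-BDEV and 2.08, 2.31 and 2.68% in CON-BDEV, and SE-BDEV 2 was just below CON-BDEV 3.

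The order of these 4 varied between libraries. let-7d-5p exceeded let-7g-5p in 3 of 6 libraries, and let-7g-5p exceeded let-7e-5p/7k in 3 of 6, with mean log2 ratios of 0.05 ± 0.16 and 0.04 ± 0.42 (SD, n = 6) that were within their spread. let-7e-5p/7k exceeded let-7i-5p in 5 of 6, the exception being SE-BDEV 3, with a mean log2 ratio of 0.59 ± 0.48 (SD, n = 6). miR-98-5p was far lower, at 0.298, 0.357 and 0.415% in SE-BDEV and 0.227, 0.289 and 0.297% in CON-BDEV. Its groups did not overlap, although SE-BDEV 1 and CON-BDEV 3 were nearly equal. let-7i-5p had 7.45 to 9.92 times its RPM, and miR-98-5p ranked between 24 and 29 among all miRNAs while the let-7 members held ranks 1 to 8.

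**Figure D2:**
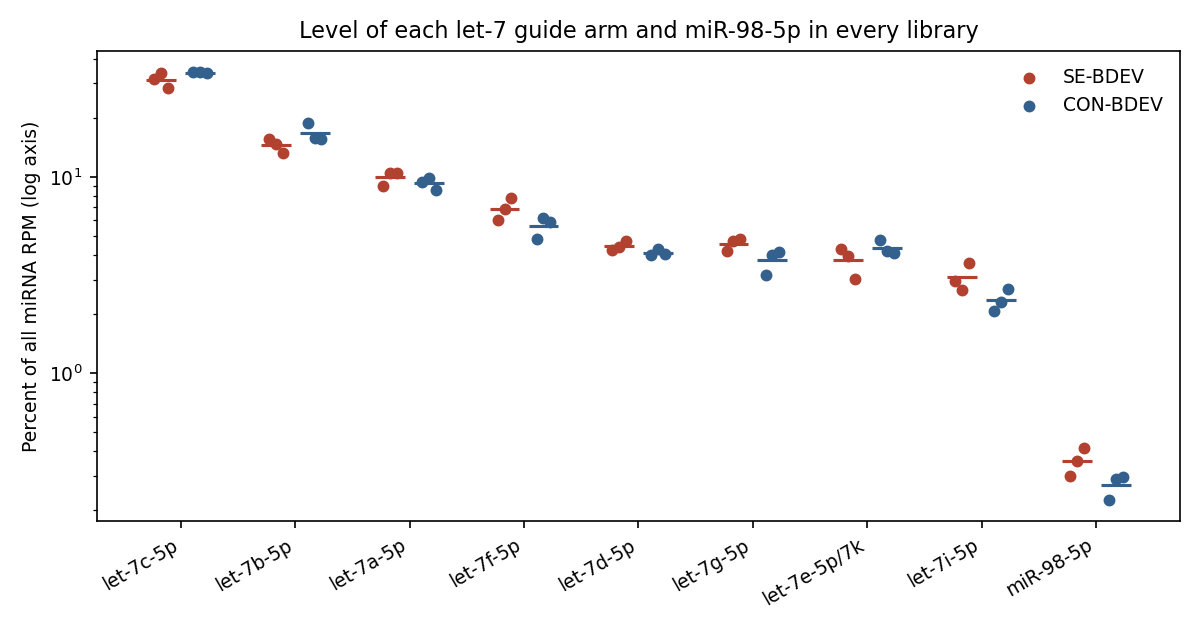
Each point is a library and each line a group mean of the percent of all miRNA RPM (log axis) for the 9 members, with SE-BDEV left of CON-BDEV. let-7c-5p lies between 28.5 and 34.1%, let-7d-5p, let-7g-5p and let-7e-5p/7k share a range of 3.02 to 4.84%, and miR-98-5p lies at 0.227 to 0.415%.

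The comparison of SE-BDEV with CON-BDEV used limma on log2(RPM + 1) over the 308 miRNAs whose mean RPM was at least 10, with Benjamini-Hochberg adjustment over all of them and calls under 0.05. None of the 9 members passed, against a background of 3 called miRNAs, 0.974% of those tested, all higher in SE-BDEV. A fit with a replicate block called 10 miRNAs, none of them a member. At an unadjusted p under 0.05 there was 1 member, let-7i-5p, where 10.4% of all tested miRNAs reached that level. That count was 5 members with the replicate block (let-7b-5p, let-7c-5p, let-7f-5p, let-7g-5p and let-7i-5p), where 17.2% of all tested miRNAs reached it, and 0 members in 7 of the 15 alternatives. In the authors' deposited table no member had an adjusted p under 0.05 and none an unadjusted p under 0.05, and 1.12% of the 625 miRNAs with an adjusted p there were under 0.05. RPM did not overlap between the groups for 3 members, let-7g-5p and miR-98-5p higher in SE-BDEV and let-7b-5p lower, beside 16.2% of all tested miRNAs, 10.7% higher and 5.52% lower.

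Of the members, 6 had positive and 3 had negative differences, none past the threshold. miR-98-5p had the largest, with a log2 difference of 0.39 ± 0.23 (SE, limma adjusted p = 0.533), and let-7i-5p was at 0.38 ± 0.16 (SE, limma adjusted p = 0.438). let-7f-5p was at 0.29 ± 0.14 and let-7g-5p at 0.28 ± 0.15, with limma adjusted p = 0.438 and 0.441. let-7d-5p and let-7a-5p were nearest to no difference, at 0.11 ± 0.13 and 0.10 ± 0.12 (SE, limma adjusted p = 0.769 and 0.759). The negative differences were those of let-7e-5p/7k at -0.23 ± 0.15, let-7b-5p at -0.21 ± 0.11 and let-7c-5p at -0.12 ± 0.09 (SE), with limma adjusted p of 0.457 to 0.646. The median was 0.11 over the members and 0.06 over all tested miRNAs.

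The 95% intervals on RPM were narrowest for the most abundant members. For let-7c-5p the interval ran from 0.804-fold to 1.05-fold (SE-BDEV over CON-BDEV), and for let-7b-5p from 0.733-fold to 1.03-fold. For let-7e-5p/7k it ran from 0.678-fold to 1.08-fold. The highest upper limit was that of miR-98-5p, 1.86-fold, then that of let-7i-5p, 1.67-fold. These limits depend on the scaling: relative to the sum of all other miRNAs the lower limit was 0.653-fold for let-7c-5p, 0.607-fold for let-7b-5p and 0.565-fold for let-7e-5p/7k, and the upper limit was 1.66-fold for miR-98-5p. On RPM the spread of the members was small. Their median SD on the log2 scale between libraries of a group was 0.17, against 0.39 over all tested miRNAs. The members fill most of a fixed total there, and the tested miRNAs include far less abundant ones. Relative to all other miRNAs the SE of the log2 difference rose for let-7c-5p, from 0.09 to 0.17. It fell for let-7i-5p, from 0.16 to 0.14, and for miR-98-5p, from 0.23 to 0.20, and rose for each remaining member.

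Because the family fills most of each library, its values depend on what they are scaled to. The authors' deposited mean signal was reproduced with size factors from the miRNAs above 0 in every library. Their deposited table gave the same sign for all 9 members, with log2 fold changes of 0.32 for miR-98-5p, 0.30 for let-7i-5p, 0.21 for let-7f-5p and 0.20 for let-7g-5p. It gave -0.28 for let-7e-5p/7k, -0.28 for let-7b-5p and -0.19 for let-7c-5p, and 0.03 for both let-7a-5p and let-7d-5p. Scaled to the sum of all miRNAs other than the members, the limma log2 difference was -0.0080 for let-7a-5p and -0.0012 for let-7d-5p, and the signs of the other 7 held. Without both libraries numbered 3, the signs of all 9 held, with values from -0.19 for let-7b-5p to 0.36 for let-7i-5p.

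**Figure D3:**
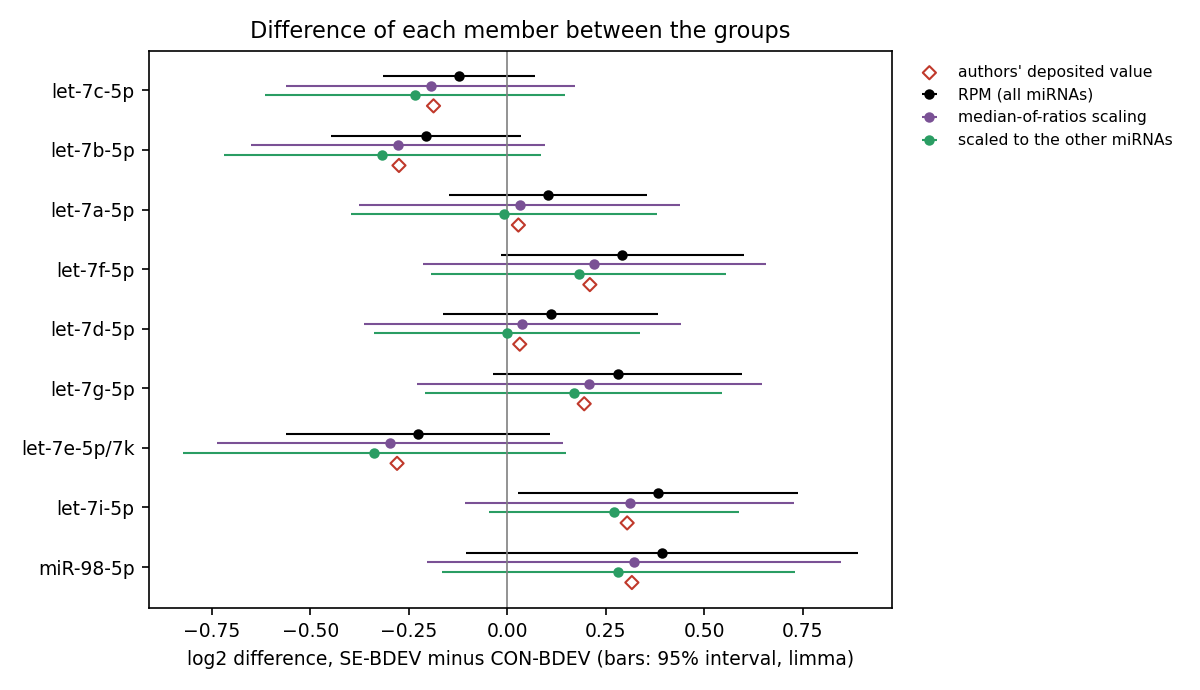
For each member, points give the log2 difference between SE-BDEV and CON-BDEV on RPM, with median-of-ratios scaling and scaled to all other miRNAs, with 95% limma intervals, and diamonds give the authors' deposited log2 fold change. On RPM only the interval of let-7i-5p lies clear of 0, from 0.03 to 0.74, and its adjusted p = 0.438.

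The make-up of the family itself does not depend on the scaling of the libraries, and each member was also expressed as a percent of the summed family. let-7c-5p made up 40.4, 41.2 and 37.2% of the family in SE-BDEV and 41.9, 42.0 and 42.6% in CON-BDEV. All SE-BDEV libraries were below all CON-BDEV libraries, and SE-BDEV 3 was the lowest. let-7f-5p made up 7.68, 8.36 and 10.2% in SE-BDEV and 5.89, 7.57 and 7.48% in CON-BDEV, let-7g-5p made up 5.34, 5.73 and 6.32% in SE-BDEV and 3.89, 4.96 and 5.26% in CON-BDEV, and both were higher in all SE-BDEV libraries than in any CON-BDEV library. The same order held for let-7d-5p, at 5.65% ± 0.469 in SE-BDEV and 5.11% ± 0.185 in CON-BDEV, and for miR-98-5p, at 0.453% ± 0.0813 in SE-BDEV and 0.337% ± 0.0512 in CON-BDEV (SD, n = 3).

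For these 5 members the exact permutation p = 0.1 (two-sided), which is the smallest that 3 against 3 can give, so no share could pass 0.05. let-7b-5p made up 18.4% ± 1.42 of the family in SE-BDEV and 20.8% ± 1.96 in CON-BDEV, and let-7e-5p/7k made up 4.75% ± 0.768 in SE-BDEV and 5.41% ± 0.406 in CON-BDEV (SD, n = 3, exact permutation p = 0.3 for each). let-7i-5p made up 3.92% ± 0.752 in SE-BDEV and 2.93% ± 0.426 in CON-BDEV (SD, n = 3, exact permutation p = 0.2). The shares sum to a whole, so they are not independent of each other. Set against the family sum in the same way, 15.9% of all tested miRNAs did not overlap between the groups, 11.7% higher and 4.22% lower. With the geometric mean of the 9 members in place of the sum, the groups did not overlap for 2 members, let-7b-5p and let-7c-5p, both lower in SE-BDEV, beside 16.2% of all tested miRNAs on that scale, 7.79% higher and 8.44% lower.

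In the make-up of the family, 2 libraries lay at opposite ends. SE-BDEV 3 had the highest within-family share of 6 members and the lowest of the other 3, let-7b-5p, let-7c-5p and let-7e-5p/7k. CON-BDEV 1, the library with the fewest reads, had the highest share of let-7b-5p and let-7e-5p/7k and the lowest of 5 members. The same opposition was therefore present between libraries of 1 group: let-7b-5p made up 23.1% of the family in CON-BDEV 1 against 19.6 and 19.8% in CON-BDEV 2 and 3, and let-7f-5p 5.89% against 7.57 and 7.48%. Over the 6 libraries, log2 RPM of let-7b-5p, let-7c-5p and let-7e-5p/7k had a Pearson r of 0.73 to 0.93 with each other. With let-7f-5p, let-7g-5p, let-7i-5p and miR-98-5p their r was -0.99 to -0.57, a description over libraries that share a fixed total. Both sets follow the direction of the differences in these same libraries, so their opposition is not a separate result. The sets leave out let-7a-5p and let-7d-5p, which were nearest to no difference. let-7a-5p had an r of -0.34 with let-7c-5p and 0.25 with let-7i-5p, and let-7d-5p had -0.79 and 0.75. Without SE-BDEV 3 the log2 difference was -0.0574 for let-7c-5p and -0.0783 for let-7e-5p/7k, and without CON-BDEV 1 it was -0.12 for let-7b-5p, 0.18 for let-7f-5p and 0.16 for let-7g-5p. All 9 signs held in both cases.

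**Figure D4:**
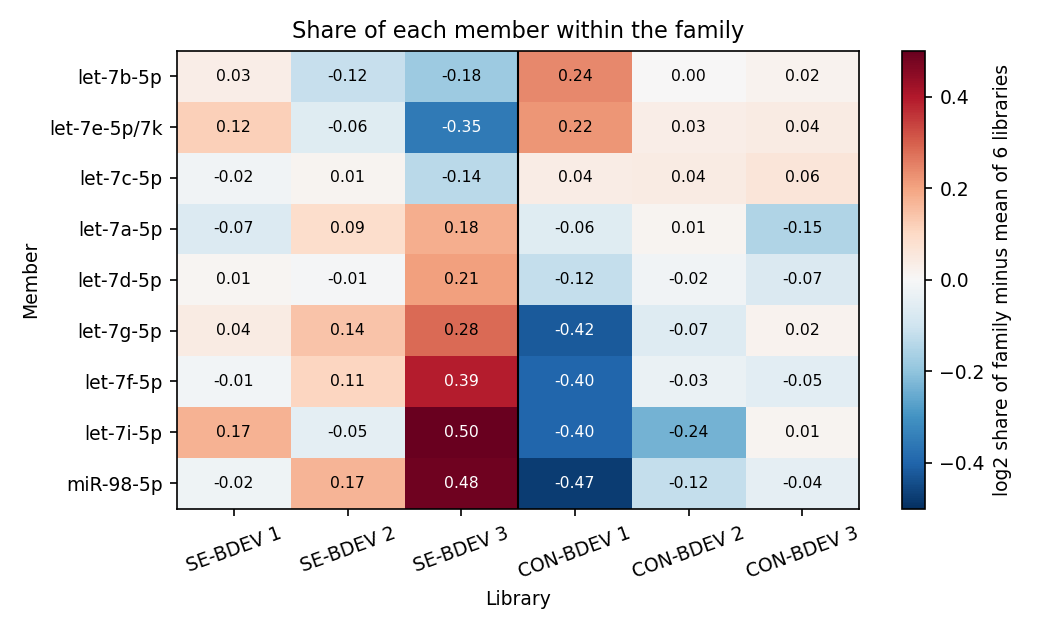
Each cell gives the log2 share of a member (rows) within the family in a library (columns) minus its mean over the 6 libraries, red for above and blue for below. SE-BDEV 3 and CON-BDEV 1 hold the strongest colours, with opposite signs in each of the 9 rows.

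The direction of the differences lined up with the number of G bases in the mature sequence, a grouping chosen after the values were seen and given with no test. The members with 9 or 10 G bases, let-7c-5p, let-7e-5p/7k and let-7b-5p, had log2 differences of -0.23 to -0.12. Those with 8, let-7a-5p, let-7d-5p and let-7i-5p, were at 0.10 to 0.38, and those with 7, let-7f-5p, let-7g-5p and miR-98-5p, at 0.28 to 0.39. Spearman's rho over the 9 members was -0.83 for G bases and -0.66 for GC content. In each library the members with 9 or 10 G bases summed to 65.9, 64.1 and 58.3% of the family in SE-BDEV and 70.9, 66.8 and 67.5% in CON-BDEV.

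Base content was related to the difference outside the family too. Over the 250 other tested miRNAs that matched a RefSeq sequence by exact name, rho was -0.58 for GC content and -0.32 for the percent of G, a description across miRNAs, which are not independent replicates. Whether base content has a part in the differences between members was not tested.

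**Figure D5:**
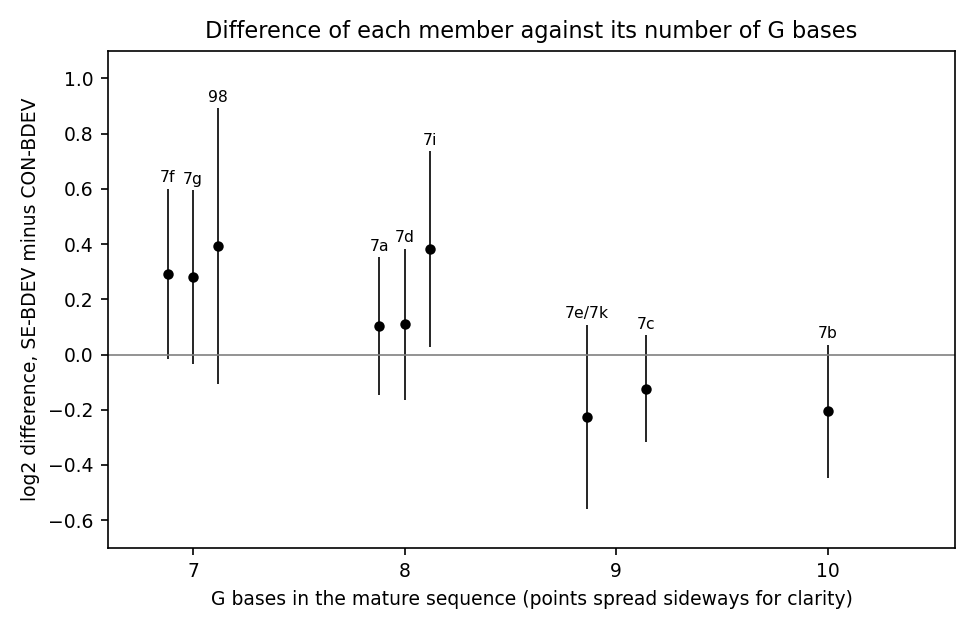
The log2 difference between SE-BDEV and CON-BDEV (points, with 95% limma intervals) is plotted for the 9 members against the number of G bases in the mature strand. The 3 members with 9 or 10 G bases lie at -0.23 to -0.12 and the 6 with 7 or 8 lie at 0.10 to 0.39, with all intervals but that of let-7i-5p crossing 0.

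Members that come from the same primary transcript can be set side by side. let-7b and let-7c-2 share a chromosome 15 transcript region and had log2 differences of -0.21 and, for let-7c-5p as a whole, -0.12. let-7f-2 and miR-98 share an intron of Huwe1, and the differences of let-7f-5p and miR-98-5p were 0.29 and 0.39. In the chromosome 13 cluster, let-7d-5p was at 0.11, let-7a-5p at 0.10 and let-7f-5p at 0.29. Since let-7a-5p, let-7c-5p and let-7f-5p also come from a second hairpin each, these values do not give the output of 1 cluster.

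The pairs of members that differ by a single base show where a read could most easily be given to the wrong row. The log2 ratio of let-7c-5p to let-7a-5p was 1.81, 1.68 and 1.44 in SE-BDEV and 1.86, 1.79 and 1.97 in CON-BDEV. SE-BDEV 1 lay between CON-BDEV 2 and CON-BDEV 1, so the groups overlapped, as they did for the ratios of let-7c-5p to let-7b-5p, let-7a-5p to let-7f-5p and let-7a-5p to let-7e-5p/7k.

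The passenger arms were nearly absent beside the guides. The 11 rows of let-7 and miR-98 3p arms summed to 59.6, 70.3 and 60.7 RPM in SE-BDEV and 129.5, 60.5 and 136 RPM in CON-BDEV, which is 76.4, 85.8 and 79.3 in SE-BDEV against 159, 74.7 and 173 in CON-BDEV as 3p reads for each 1000000 guide reads. CON-BDEV 1 and 3 were high and CON-BDEV 2 lay with the SE-BDEV libraries, a difference in the log2 ratio of -0.66 (exact permutation p = 0.4, smallest possible 0.1). The sums include let-7b-3p, which was at 0 in SE-BDEV 3 and CON-BDEV 1. It had 15.9 and 17.8 RPM in SE-BDEV 1 and 2, and 14.4 and 22.04 RPM in CON-BDEV 2 and 3. The cause of these zeros was not tested. As a mean of the ratios of let-7d, let-7e and let-7i, which leaves out let-7b-3p, the difference was -0.80 (exact permutation p = 0.3). let-7d-3p was the highest 3p row in each of the 6 libraries, at 29.3, 37.2 and 49.9 RPM in SE-BDEV and 116, 35.8 and 90.8 RPM in CON-BDEV, with a log2 difference of -0.91 (limma adjusted p = 0.438). It was not called with all 6 libraries, and that outcome depended on single libraries. Without CON-BDEV 2 the log2 difference was -1.41 and passed (limma adjusted p = 0.0282), and without CON-BDEV 1 it was -0.58 (limma adjusted p = 0.857). The guide from the same hairpin, let-7d-5p, was at 0.11.

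Among the miRNAs encoded beside let-7 hairpins, none of the 5 passed. miR-125a-5p, a neighbour of let-7e, was at a log2 difference of -0.24, and miR-99b-5p from the same cluster at 0.24 (limma adjusted p = 0.741 for each). miR-99a-5p and miR-100-5p, neighbours of let-7c-1 and let-7a-2, were at 0.39 and 0.51, and miR-125b-5p, encoded beside both, at -0.11 (limma adjusted p of 0.571 to 0.901). The direction of miR-125b-5p turned without SE-BDEV 3, to 0.19, and without both libraries numbered 3, to 0.14. With 1 library left out, log2 differences ran from 0.28 to 0.71 for miR-100-5p, from 0.24 to 0.56 for miR-99a-5p, from 0.13 to 0.35 for miR-99b-5p and from -0.39 to -0.0769 for miR-125a-5p, none of them past the threshold.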

How the data were processed

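The authors deposited RPM values for 6 libraries and, in a second table, their own mean normalized signal, log2 fold changes with standard errors, a test score and p-values. RNA extraction used the miRNeasy Micro Kit (DNase-treated) and library preparation the QIAseq miRNA kit, per the labels' protocols. The submitters' processing notes name DESeq2 and build mm9, without versions; the sources used here give neither the aligner nor the counting tool nor any use of molecular identifiers. All RPM values were whole multiples of 1 step per library within 0.001 step, and the reads so recovered gave the deposited mean signal with a largest relative difference of 1.39e-09. The step was set by taking the smallest RPM above 0 in each library as 2 reads, a setting that rests on this match. No value of 1 read is then listed, and no count model was fitted for that reason, although the recovered reads matched the deposited mean signal. The recovered reads were used only for library totals and Wilson intervals.

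limma 3.58.1 (R 4.3.3, statmod 1.5.0) was fitted to log2(RPM + 1) of the 308 miRNAs whose mean RPM was at least 10, using a trended prior variance, robust empirical Bayes moderation and two-sided tests. The fit was tested on simulated data and kept false calls low when the changed miRNAs were of moderate abundance. In that simulation the changes were balanced between higher and lower and larger than any difference of a member. Every let-7 member is more abundant than the miRNAs changed there, so the simulation does not cover them. In an earlier simulation whose changed miRNAs could include the most abundant ones, false calls exceeded the nominal rate, and the test was then narrowed to moderate abundance; the cause was not tested. Differences are on the log2(RPM + 1) scale, SE-BDEV minus CON-BDEV. Single values per library were compared with exact permutation tests (scipy 1.17.1), and figures were drawn with matplotlib 3.10.9. Alternatives were other scalings, pseudocounts, filters, a replicate block, and libraries left out. All members were named, with their 3p arms, 5 cluster partners, other carriers of the seed and the 3 miRNAs most alike across libraries. The members, lists and tests were chosen with earlier results of these data known.

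Replicate numbers recur in both groups. Libraries of the same number had deviations (from their group means) that correlated at 0.22, 0.20 and 0.46, all over the bound of 0.1 for treating numbers as pairs. Some libraries of different numbers passed it too, SE-BDEV 1 with CON-BDEV 2 at 0.34 and SE-BDEV 2 with CON-BDEV 1 at 0.20. The others of different numbers were negative, down to -0.41. The labels do not call equal numbers pairs. Without miR-24-3p the values for equal numbers were -0.0639, -0.0614 and -0.0806. Over the 9 members alone, the values for equal numbers were 0.83, 0.06 and 0.73. Those for different numbers ran from -0.91 (SE-BDEV 1 with CON-BDEV 2) to 0.67 (SE-BDEV 3 with CON-BDEV 2).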

Additional observations from a re-analysis of the deposited data

How the results depend on the processing

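No member was called under any of the 15 alternatives, and the lowest adjusted p of a member was 0.109, for let-7b-5p and let-7f-5p with the replicate block. Other filters and the replicate block leave a member's log2 difference unchanged, and other pseudocounts hardly move it. Those alternatives could not turn a direction but are counted among the 135 combinations of member and alternative. The direction turned in 2 of the 135, both scaled to the other miRNAs: let-7a-5p (-0.0080) and let-7d-5p (-0.0012). As a log2 ratio to the geometric mean of the 9 members, the within-family difference of these 2 was -0.0086 and -0.0018. All 9 members' signs held with each library left out. The count of called miRNAs, 3, was 1 with a minimum mean of 100 RPM, where fewer were tested, 10 with the replicate block, and 2 to 8 with 1 library left out, the 8 without CON-BDEV 2; the cause was not tested. The block changed no call of a member. The difference in the family's share of RPM was -3.17 to -0.527 percentage points over its alternatives, and that of the log2 passenger to guide ratio was -1.04 to -0.43. The planned edgeR and DESeq2 fits were not run, because the values list no single reads, although the recovered reads matched the deposited mean signal. Counting error was at most 0.0443 percentage points of a member's share to either side (95% Wilson).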

Other observations

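Among the other miRNAs, those whose log2 RPM followed the summed family most closely over the 6 libraries were miR-877-3p (Pearson r = 0.89, Spearman's rho = 0.89), miR-6934-5p (0.88 and 0.89) and miR-505-5p (0.86 and 0.77). These values describe libraries that share a fixed total and were the highest of many, so no test was made. miR-505-5p had 250, 305 and 166 RPM in SE-BDEV and 334, 247 and 257 RPM in CON-BDEV. In each of these 3 miRNAs the lowest value was that of SE-BDEV 3, which also had the lowest family share.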
